A study of Mus musculus with 10 samples.

Results

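The 9 genes described here mark dendritic cells and Langerhans cells and were taken as the rows of the count table whose mouse Ensembl identifiers map to Xcr1, Clec9a, Batf3, Flt3, Zbtb46, Cd209a, Cd207, Ccr7 and Siglech, 9 of 52636 genes in all. They were measured in bulk RNA from 10 melanoma tumours of mice. All 10 tumours carried BrafCA, a Cre-activated oncogenic allele of Braf, and Cdkn2af/f, a floxed tumour suppressor locus. Arf6Q67L, an allele whose product, a small GTP-binding protein of membrane traffic, stays GTP-bound, was present in 6 tumours, and the 4 tumours without it served as controls. Age, sex, litter and the source of Cre were not stated in the labels, nor whether each tumour came from its own animal, so p-values measure the spread between these tumours.

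Dendritic cells take up antigen in tissue, carry it to lymph nodes and present it to T cells. Type 1 conventional dendritic cells (cDC1) depend on the transcription factor BATF3 and present antigen from dead cells on MHC class I. Type 2 cells (cDC2) mostly prime helper T cells, plasmacytoid dendritic cells secrete type I interferon, and Langerhans cells are the resident antigen-presenting cells of the epidermis. In mouse melanoma models, cDC1 are known for bringing tumour antigen to CD8 T cells.

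Libraries held between 28635414 and 40869091 counts, and levels are given as CPM (counts scaled to a common library size) scaled with TMM factors. All 9 genes were counted in all 10 tumours and all 9 passed the filter on low counts (17286 genes tested). In the fit across all tested genes (edgeR quasi-likelihood test, Benjamini-Hochberg threshold 0.05), 0 genes (0%) were called in either direction, so 0 of the 9 members were called. At an unadjusted p under 0.05, 7.05% of all genes were lower and 4.65% higher in Arf6Q67L tumours, and among the 9 members 2 were lower and 0 higher. DESeq2 called 2.39% of all genes and 0 of the 9. Groups did not overlap for 2.44% of all genes, and for 0 of the 9. A simulation of this design placed 2-fold and 4-fold changes in 100 genes each. They were drawn from all tested genes with a mean above 1 CPM. Of these edgeR recovered 35% of 2-fold changes and 76% of 4-fold changes, so a missed call does not show that levels were alike. Recovery at the 9 members themselves was not measured, and Cd207 lay below that level. Arf6Q67L libraries had the numbers 1 to 6 and control libraries 9 to 12, and an effect of that order cannot be told apart from one of genotype.

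Tumours differed widely in the RNA level of a leukocyte marker. Ptprc, which encodes the leukocyte surface protein CD45, lay at 110 CPM in Arf6Q67L tumour 1, 111 in tumour 2, 130.2 in tumour 3, 200.1 in tumour 4, 132 in tumour 5 and 76.3 in tumour 6. In controls 1 to 4 it lay at 159, 279, 106.0 and 425 CPM. Controls 4 and 2 thus had the highest levels, and the groups overlapped (log2 fold change -0.94, SE 0.37, unadjusted p = 0.0293, edgeR adjusted p = 0.382). Of the tissue's own markers, the melanocyte regulator Mitf was between 11.07 and 26.1 CPM. The pigment enzyme genes Tyr and Dct had 0 counts in all 10 libraries, which allows up to 0.106 CPM in the shallowest. The other melanocyte markers read were low as well. Sox10 was at 0.0639 to 2.83 CPM in Arf6Q67L tumours and at 0.0629 to 1.27 CPM in controls. Pmel was at 0.524 to 0.940 CPM and at 0.659 to 0.939 CPM, and Tyrp1 and Mlana had at most 2 and 3 counts a library. Arf6 itself was between 74.7 and 130.1 CPM in Arf6Q67L tumours and between 68.6 and 107 CPM in controls, and gene counts do not show the base change.

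The cDC1 genes had the most negative fold changes of the 9. Xcr1, the receptor for the chemokine XCL1 and a surface mark of cDC1 (chromosome 9, 123852315 to 123862029, GRCm38), was at 1.14 CPM in Arf6Q67L tumour 1, 0.138 in tumour 2, 0.287 in tumour 3, 1.75 in tumour 4, 0.963 in tumour 5 and 2.12 in tumour 6. In controls 1 to 4 it was at 0.659, 8.33, 0.810 and 25.7 CPM. Controls 2 and 4 were above every Arf6Q67L tumour, whereas controls 1 and 3 lay inside the Arf6Q67L range. The means were 1.07 ± 0.782 CPM (SD, n = 6) and 8.88 ± 11.8 CPM (SD, n = 4). The log2 fold change was -3.05 (SE 1.04), so that the fitted mean was 8.30 times as high in controls, with an unadjusted p of 0.0146 and an edgeR adjusted p of 0.344. Without control 4 this ratio was 3.01 (log2 fold change -1.59, SE 0.94, edgeR adjusted p = 0.659). The lowest library, Arf6Q67L tumour 2, held 5 Xcr1 counts and the highest, control 4, held 767. These were bulk samples, in which fewer cells of a type and less RNA per cell cannot be told apart.

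Clec9a, which encodes a C-type lectin receptor for the exposed actin of dead cells (chromosome 6, 129408862 to 129424763), was at 1.597, 0.910, 2.14, 2.32, 1.38 and 1.94 CPM in Arf6Q67L tumours 1 to 6. The 4 controls stood at 1.37, 4.31, 1.94 and 8.99 CPM. Again controls 4 and 2 were highest, and the other 8 tumours lay close together. Its log2 fold change was -1.27 (SE 0.49, unadjusted p = 0.0267, edgeR adjusted p = 0.375), and it was -0.55 without control 4 (SE 0.40, edgeR adjusted p = 0.726). Clec9a shares 184 exon bases with Clec1b on the same strand, and how such reads were assigned was not stated in the labels. Clec1b, a lectin of platelets, was at 0.372 to 0.993 CPM in Arf6Q67L tumours and at 1.09, 0.975, 0.916 and 0.872 CPM in controls 1 to 4. The part of shared reads in the Clec9a values was not tested.

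Batf3, the transcription factor of the cDC1 lineage (chromosome 1, 191097847 to 191108945), was at 0.974, 0.662, 0.798, 2.38, 4.37 and 2.23 CPM in Arf6Q67L tumours 1 to 6. Controls stood at 1.85, 4.62, 1.51 and 11 CPM. Controls 4 and 2 were again the highest, with Arf6Q67L tumour 5 close to control 2, and controls 1 and 3 lay inside the Arf6Q67L range. The log2 fold change was -1.31 (SE 0.68, unadjusted p = 0.0804, edgeR adjusted p = 0.480) and -0.47 without control 4. Activated T cells are also known to express Batf3. The 6 T cell markers of the list summed to 15.9, 123, 12.8 and 196 CPM in controls 1 to 4. In Arf6Q67L tumours, whose range held controls 1 and 3, they summed to 2.65 to 48.3 CPM. The part of T cells in the Batf3 values was not tested.

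**Figure D1:**
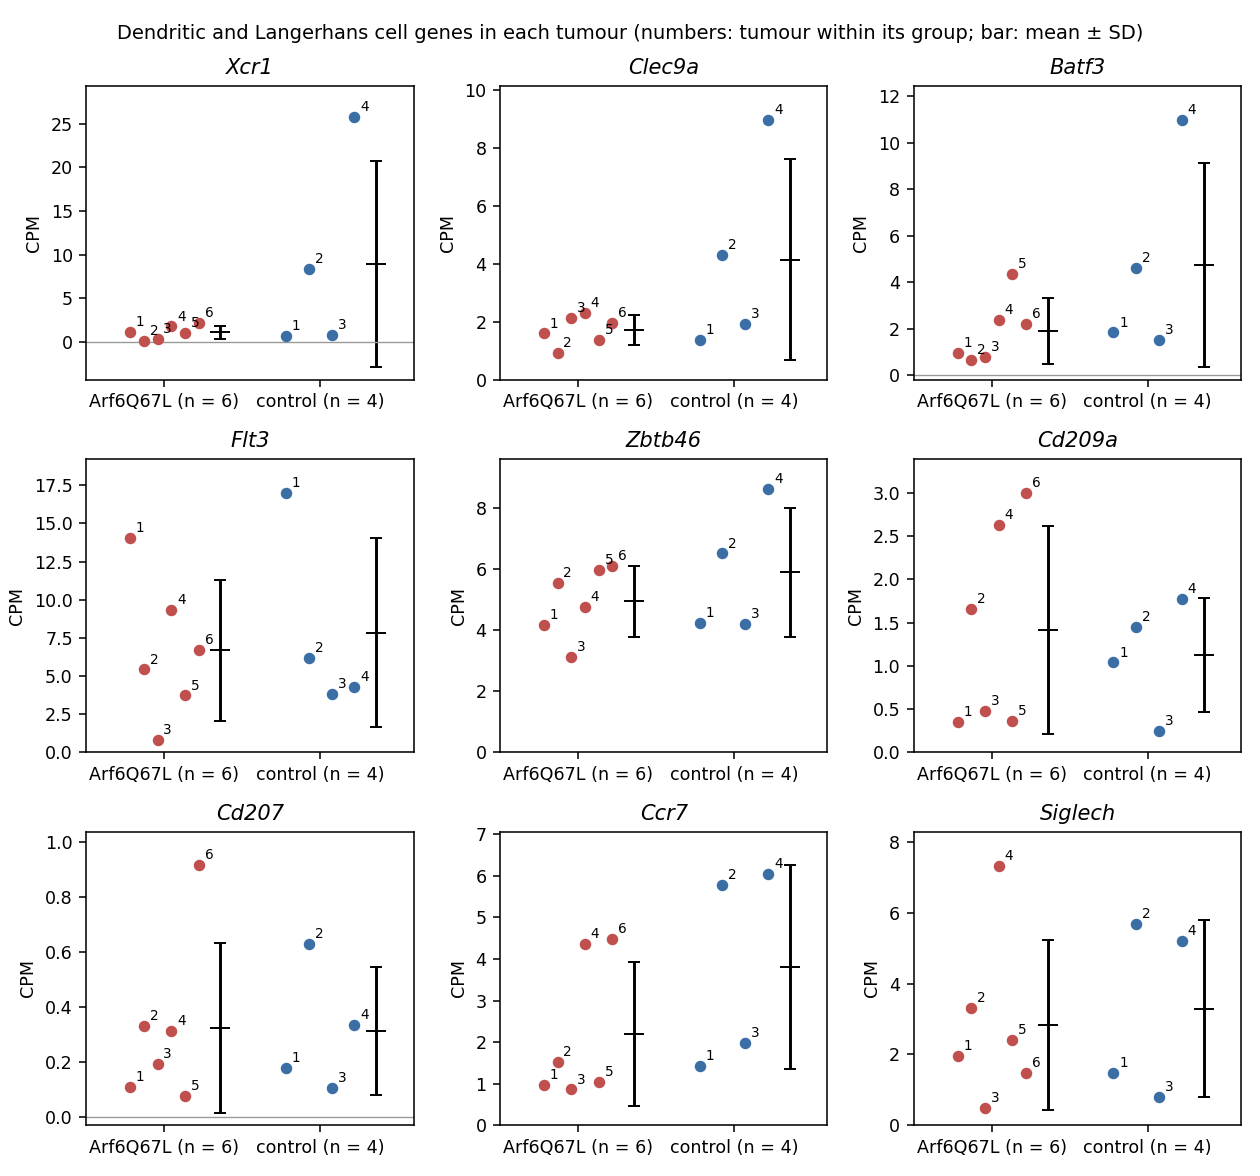
Level of each of the 9 genes in CPM (vertical axes, linear, 1 panel a gene) in 6 Arf6Q67L tumours (red) and 4 controls (blue), with tumour numbers beside the points and the mean ± SD beside each group. For Xcr1, Clec9a and Batf3 controls 4 and 2 were the 2 highest tumours, with control 4 at 25.7, 8.99 and 11 CPM, while Flt3 was highest in control 1 at 17.0 CPM.

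The genes shared by the dendritic lineage as a whole did not separate the groups. Flt3, the receptor tyrosine kinase for the growth factor FLT3L (chromosome 5, 147330741 to 147400489), was at 14.1, 5.43, 0.798, 9.34, 3.72 and 6.72 CPM in Arf6Q67L tumours 1 to 6 and at 17.0, 6.16, 3.84 and 4.29 CPM in the controls. Its highest tumour was control 1 and its lowest was Arf6Q67L tumour 3, and control 4, highest for the 3 cDC1 genes, ranked 7 of 10 here. The log2 fold change was -0.23 (SE 0.67, edgeR adjusted p = 0.925) and turned to 0.49 without control 1. Zbtb46, a transcription factor of conventional dendritic cells (chromosome 2, 181387762 to 181459426), varied least of the 9. It lay between 3.13 and 6.09 CPM in Arf6Q67L tumours (median 5.15) and between 4.19 and 8.62 CPM in controls (median 5.37), a highest-to-lowest ratio of 2.76 over 10 tumours, against 187 for Xcr1. Its log2 fold change was -0.25 (SE 0.27, edgeR adjusted p = 0.759) and 8.8e-04 without control 4. Endothelial cells are known to express Zbtb46 as well, and the sum of 5 endothelial markers ran from 62.6 to 252 CPM in Arf6Q67L tumours and from 114 to 275 CPM in controls, with control 4 the lowest control. Its part in the Zbtb46 values was not tested.

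The lectin receptors of cDC2 and Langerhans cells had similar means in both groups. Cd209a, a mouse relative of DC-SIGN found on cDC2 and monocyte-derived cells (chromosome 8, 3743397 to 3748984), was at 0.352, 1.66, 0.479, 2.63, 0.364 and 3.003 CPM in Arf6Q67L tumours 1 to 6. Controls stood at 1.04, 1.45, 0.247 and 1.78 CPM. The 2 highest tumours were Arf6Q67L tumours 6 and 4, and the lowest was control 3. In the fit Cd209a had a log2 fold change of 0.32 (SE 0.75, edgeR adjusted p = 0.901). Cd207, which encodes langerin, the protein of Birbeck granules (chromosome 6, 83671215 to 83677857), was the least abundant of the 9, with 3 to 32 counts a library. It was at 0.108, 0.331, 0.192, 0.313, 0.0781 and 0.915 CPM in Arf6Q67L tumours and at 0.178, 0.629, 0.106 and 0.336 CPM in controls, with Arf6Q67L tumour 6 highest. In the fit Cd207 stood at 0.05 on the log2 scale (SE 0.71, edgeR adjusted p = 0.990), 0.64 without control 2 and -0.60 without Arf6Q67L tumour 6. Markers of epidermis differed in level. The adhesion molecule Epcam, which Langerhans cells carry, stayed at 0.911 to 4.05 CPM, and the basal keratinocyte genes Krt5 and Krt14 did not exceed 0.715 and 1.17 CPM, both reached in Arf6Q67L tumour 6. Krt10, a keratin of differentiated keratinocytes, was at 3.695 to 5.57 CPM, and the 7 keratinocyte markers summed to 7.47 to 38.5 CPM in Arf6Q67L tumours and to 10.6 to 27.9 CPM in controls. Their part in the Cd207 values was not tested.

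Ccr7 guides mature dendritic cells, as well as naive T cells, towards lymph nodes (chromosome 11, 99144196 to 99155077). It was at 0.974, 1.52, 0.862, 4.36, 1.04 and 4.49 CPM in Arf6Q67L tumours 1 to 6 and at 1.42, 5.78, 1.97 and 6.04 CPM in controls. Within each group the tumours formed a low and a high set, the high ones being Arf6Q67L tumours 4 and 6 and controls 2 and 4. For Ccr7 the log2 fold change was -0.78 (SE 0.63, edgeR adjusted p = 0.668), -0.45 without control 4 and -0.14 with the Ptprc level as a term. Siglech, a sialic acid-binding receptor of plasmacytoid dendritic cells (chromosome 7, 55768178 to 55778925), was at 1.95, 3.31, 0.479, 7.33, 2.42 and 1.49 CPM in Arf6Q67L tumours and at 1.47, 5.69, 0.810 and 5.20 CPM in controls. Arf6Q67L tumour 4 was highest and controls 2 and 4 followed. The log2 fold change was -0.22 (SE 0.73, edgeR adjusted p = 0.937), and it had no direction that held when tumours were left out (-0.77 to 0.19).

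**Figure D2:**
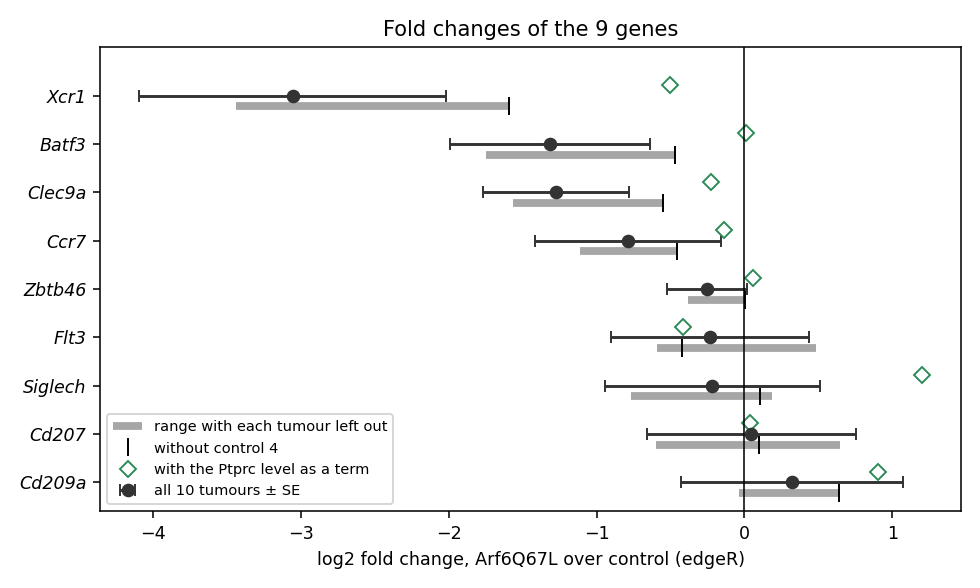
Log2 fold change of each gene, Arf6Q67L over control, from edgeR (horizontal axis), with its SE (black), the range with each tumour left out (grey), the value without control 4 (tick) and the value with the Ptprc level as a term (green). Xcr1 lay at -3.05 and moved to -1.59 without control 4, and 5 of the other genes had ranges that reached or crossed 0.

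Over the 9 genes 7 log2 fold changes were negative, against 50.3% of all tested genes. The median was -0.25, against -0.0018 over all tested genes, and lay between -0.77 and -0.13 with each tumour left out. Without control 4, 5 of the 9 were negative (median -0.42), and with the log2 level of Ptprc as a term 4 of the 9 were (median 0.0093). Ptprc itself had a log2 fold change of -0.94 (SE 0.37), so its level and genotype cannot be fully told apart in such a fit. In the fit with Ptprc, Xcr1 stood at -0.50 (SE 1.45, edgeR adjusted p = 0.993), Clec9a at -0.23 (SE 0.47) and Batf3 at 0.0093 (SE 0.73). Flt3 stood at -0.41 (SE 0.82) there, more negative than Clec9a and Batf3. In that fit Siglech stood at 1.20 (SE 0.63, unadjusted p = 0.0900, edgeR adjusted p = 0.886). Per 100 CPM of Ptprc, Clec9a lay between 0.824 and 2.55 CPM in Arf6Q67L tumours and between 0.862 and 2.12 CPM in controls. Xcr1 lay between 0.125 and 2.77 CPM and between 0.415 and 6.06 CPM on the same scale. Control 4 had the lowest Flt3 and Zbtb46 of the controls per 100 CPM of Ptprc, at 1.01 and 2.03 CPM.

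**Figure D3:**
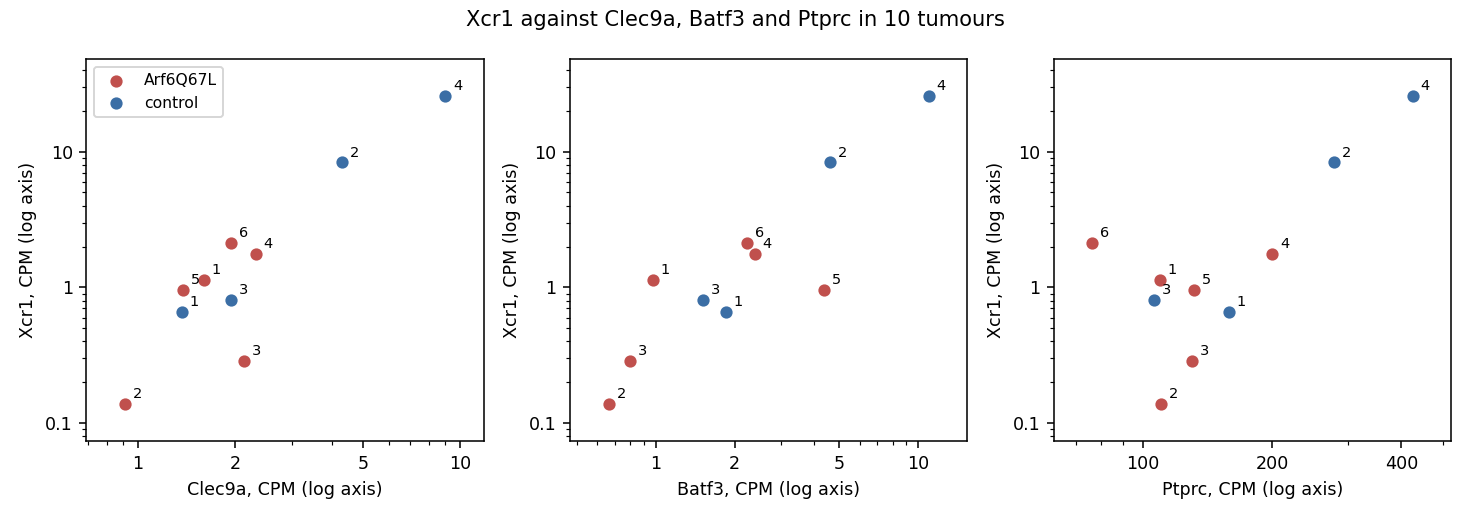
Xcr1 in CPM (vertical, log axis) against Clec9a, Batf3 and Ptprc in CPM (horizontal, log axes) in 6 Arf6Q67L tumours (red) and 4 controls (blue), numbered within their group. Controls 2 and 4 stood at the upper right in all 3 panels, and Arf6Q67L tumour 2, with 0.138 CPM of Xcr1, at the bottom.

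Across the 10 tumours Xcr1 varied with Clec9a and with Batf3 by Pearson's r. Of 36 pairs of the 9 genes, 35 had a positive Pearson's r of log2 CPM and 7 passed after adjustment over the 36 pairs (two-sided permutation test with 100000 permutations), while 0 did by Spearman's rho (lowest adjusted p = 0.0680). Xcr1 and Clec9a had r = 0.91 (permutation p = 8.2e-04, adjusted p = 0.0148) and rho = 0.76 (permutation p = 0.0148, adjusted p = 0.103). Without controls 2 and 4, the tumours farthest from the median of Xcr1, r was 0.60, and within the 6 Arf6Q67L tumours it was 0.61. Xcr1 and Batf3 had r = 0.89 (permutation p = 5.5e-04, adjusted p = 0.0148) and rho = 0.84 (permutation p = 0.00378, adjusted p = 0.0680), with r = 0.70 without those 2 controls and 0.71 within Arf6Q67L tumours. Xcr1 outran Clec9a at the upper end. Counts of Xcr1 per count of Clec9a were 0.134 to 1.09 in Arf6Q67L tumours and 0.482, 1.93, 0.418 and 2.86 in controls 1 to 4.

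The lectin genes Cd209a and Cd207 had r = 0.86 (permutation p = 0.00145, adjusted p = 0.0174) and rho = 0.84 (permutation p = 0.0037, adjusted p = 0.0680), with r = 0.81 without Arf6Q67L tumour 1 and control 3 and 0.90 within Arf6Q67L tumours. The other 4 pairs past the threshold by r were Xcr1 with Ccr7 (r = 0.80, permutation p = 0.00229, adjusted p = 0.0206; rho = 0.75, permutation p = 0.0172, adjusted p = 0.103), Batf3 with Zbtb46 (r = 0.79, permutation p = 0.0063, adjusted p = 0.0454; rho = 0.77, permutation p = 0.0125, adjusted p = 0.103), Clec9a with Batf3 (r = 0.77, permutation p = 0.00856, adjusted p = 0.0474; rho = 0.62, permutation p = 0.0601, adjusted p = 0.170) and Clec9a with Ccr7 (r = 0.71, permutation p = 0.00922, adjusted p = 0.0474; rho = 0.60, permutation p = 0.0745, adjusted p = 0.179). Without the 2 tumours farthest from the median these had r of 0.59, 0.90, 0.24 and 0.39, so that the relations of Clec9a with Batf3 and with Ccr7 rest on controls 2 and 4. Within the 6 Arf6Q67L tumours the same 4 pairs had r of 0.59, 0.56, 0.28 and 0.37. Flt3 had r from -0.16 to 0.45 with the other 8 genes over all 10 tumours (lowest adjusted p = 0.325, permutation test), while within the 6 Arf6Q67L tumours it had r of 0.72 with Siglech, 0.54 with Xcr1 and 0.50 with Zbtb46. Each point is 1 tumour with its own Ptprc level, and the part of that level in these relations was not tested.

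**Figure D4:**
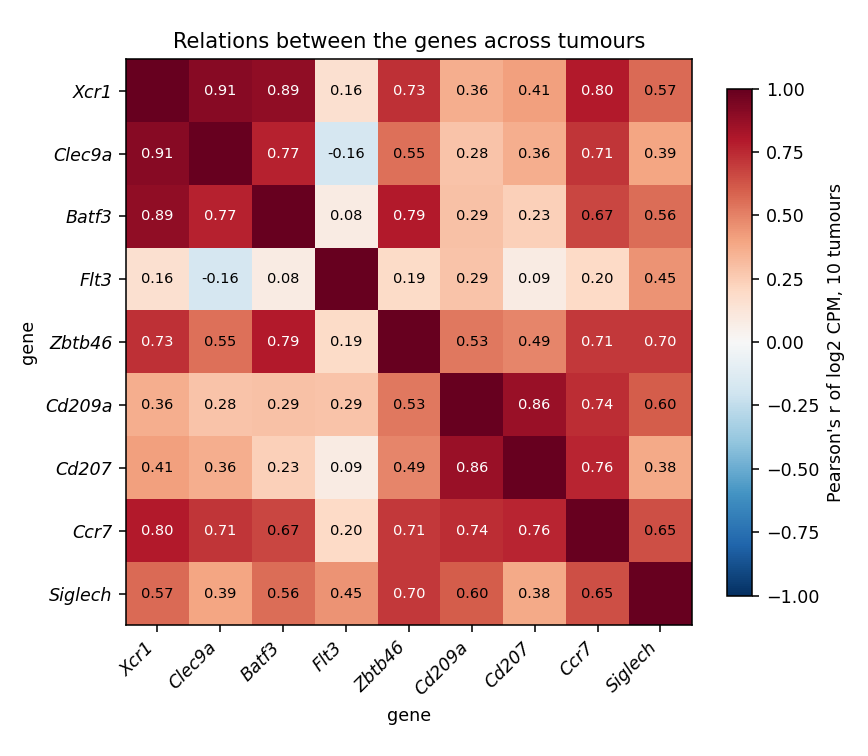
Pearson's r of log2 CPM over 10 tumours for each pair of the 9 genes (rows and columns; red positive, blue negative). Xcr1, Clec9a and Batf3 had r of 0.77 to 0.91 among themselves, Cd209a and Cd207 had 0.86, and the row of Flt3 was pale.

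Genes outside the 9 were ranked by their r with each member over the 10 tumours among 12885 protein-coding genes, as a description. The closest to Xcr1 was the orphan receptor gene Gpr160 (r = 0.98), followed by Agap2 and the leukocyte receptor Slamf7 (both 0.97). For Clec9a they were the coronin Coro2a (0.99), Cryz (0.98) and the myeloid lysozyme Lyz2 (0.96). For Batf3 all 3 were lymphocyte genes, Themis, Ptprcap and the CD8 chain Cd8a (each 0.96). The closest to Siglech was Ccr9 (0.906), a chemokine receptor that plasmacytoid dendritic cells also carry. Ap1s3 (0.905) and the keratin gene Krt20 (0.888) followed closely. The closest to Cd209a was its paralog Cd209g (0.90), for which reads that match both genes could be shared. After it came Matr3 (0.88) and Nup54 (0.87), which are in none of the lists. The 3 closest to Flt3 (Fam45a, Wnk3 and Larp4, 0.89 to 0.92) and to Cd207 (Mthfd1, Prpsap2 and Rpf2, 0.89 to 0.93) included no immune marker of the lists. Those closest to Zbtb46 were Tspan33 (0.98), Zkscan4 (0.95) and D130040H23Rik (0.94), and those closest to Ccr7 were Atp2a3, Rab37 (both 0.93) and Dscc1 (0.92).

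Other genes of each cell type were read in the same fit, with the 9 members left out, and 0 of them were called in edgeR. The cDC1 list had 6 of 6 genes negative at a median log2 fold change of -0.74. It held the RNA sensor Tlr3 (-0.75, SE 0.20), the only one whose groups did not overlap, the lineage factor Irf8 (-1.07, SE 0.35) and the lysosomal hydrolase Naaa (-1.10, SE 0.43), with edgeR adjusted p-values of 0.273, 0.322 and 0.376. DESeq2 called Tlr3 (adjusted p = 0.0434). Without control 4 the median was -0.47 with 5 of 6 negative. The cDC2 list had 7 of 8 negative at -0.49 (-0.28 without control 4), with the integrin Itgax at -0.91 (SE 0.30), Klf4 at -0.46 (SE 0.17) and Sirpa at -0.52 (SE 0.24). Itgax and Sirpa are also known on macrophages, whose 8 markers summed to 2094 and 3327 CPM in controls 2 and 4 and to 764 to 1569 CPM in the other 8 tumours. The part of macrophages in the Itgax and Sirpa values was not tested.

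Of 10 plasmacytoid genes 9 were negative at a median of -0.64 (-0.27 without control 4). Bst2, which interferon also induces in many cell types, stood at -1.54 (SE 0.32, edgeR adjusted p = 0.233, DESeq2 adjusted p = 0.00189) and its groups did not overlap. Klk1 stood at -1.56 (SE 0.60) and the RNA sensor Tlr7 at -0.54 (SE 0.24). The maturation list had 8 of 9 tested genes negative at -0.79 (-0.54 without control 4). Of its 9 genes 5 were lower at an unadjusted p under 0.05, as were 6 of 8 macrophage, 4 of 6 T cell, 3 of 6 cDC1, 3 of 5 endothelial, 2 of 8 cDC2 and 2 of 10 plasmacytoid genes, against 7.05% of all tested genes. So were 4 of 12 lineage transcription factor, 1 of 3 Langerhans cell and 1 of 5 ligand genes. The lists share genes, so these counts are not independent. Irf8, Klf4 and Relb, among the 4 transcription factors, were also counted in the cDC1, cDC2 and maturation lists. Among tested NK cell (6), keratinocyte (3), lymph node stroma (2) and B cell (1) genes, 0 were. The costimulatory genes Cd86 (-0.91, SE 0.33) and Cd40 (-1.49, SE 0.57) and the NF-kappaB subunit Relb (-0.34, SE 0.13) each had an edgeR adjusted p between 0.364 and 0.379. Fscn1, the actin bundler of mature dendritic cells that other cells of a tumour can also express, was the 1 positive gene (0.27). Of 3 tested Langerhans cell genes 2 were negative, Epcam (-0.89, SE 0.34) and Ltc4s (-0.32, SE 0.32), and Cdh1 stood at 0.01 (SE 0.47). Lineage transcription factors were negative for 10 of 12 genes at -0.39, -0.23 without control 4.

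Lists of other leukocytes were mostly negative as well. The T cell list had 6 of 6 negative at a median of -2.17 (-1.46 without control 4), led by Cd3g (-2.52, SE 1.02), and the macrophage list 7 of 8 at -0.88 (-0.41 without control 4), with the engulfment receptor Mertk positive at 0.73 (SE 0.21, edgeR adjusted p = 0.283). Mertk was higher in all 6 Arf6Q67L tumours than in any control, and DESeq2 called it (adjusted p = 0.0419). NK cell genes were split, 3 negative and 3 positive at -0.05, led by Eomes (-1.14, SE 0.53). Of 5 B cell genes only Cd79b passed the filter (-0.96, SE 0.75), and of 7 keratinocyte genes 3 did (median -0.22, Perp at -0.61, SE 0.70). The 5 endothelial genes were all negative at -0.86, with Emcn at -1.20 (SE 0.30, edgeR adjusted p = 0.248, DESeq2 adjusted p = 0.0158). Of 6 genes of lymph node stroma 2 passed, Cr2 (0.66, SE 0.36) and Cxcl13 (1.05). With the Ptprc level as a term, the medians were -0.13 for cDC1, 0.12 for cDC2, 0.0391 for plasmacytoid, -0.27 for maturation and -0.17 for T cell genes. The endothelial median stayed at -0.79 in that fit, and those of NK cell, keratinocyte and lymph node stroma genes were 0.58, 0.15 and 1.56. Macrophage, Langerhans cell, lineage transcription factor and ligand genes had medians of -0.07, -0.06, -0.06 and -0.07.

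**Figure D5:**
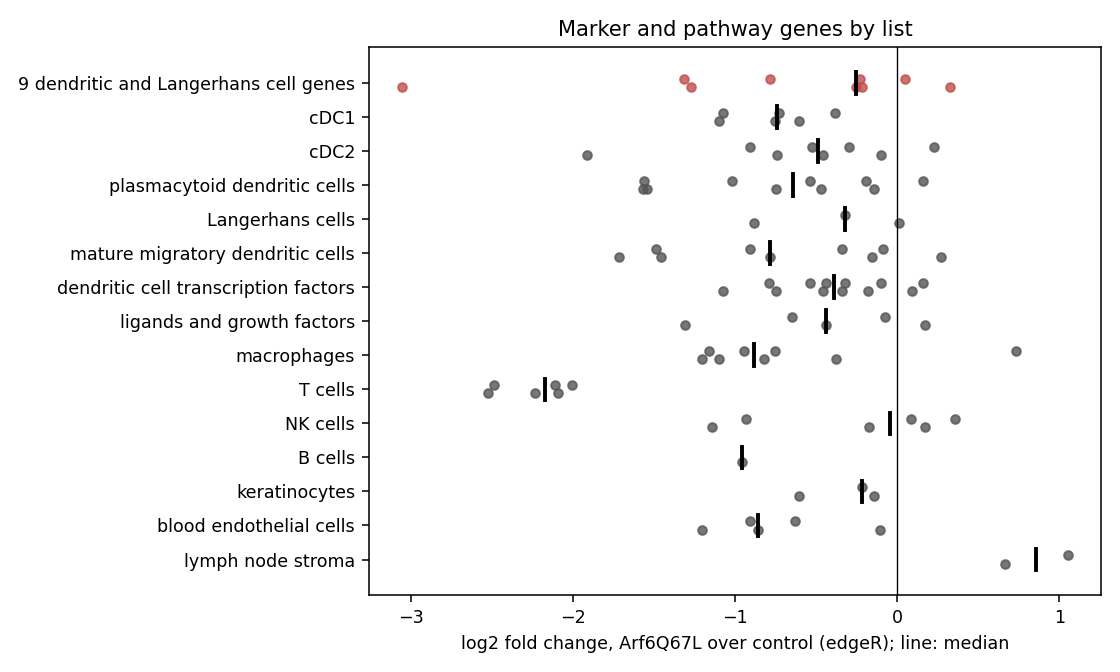
Log2 fold change of each tested gene, Arf6Q67L over control (horizontal axis), by list (rows; black lines are medians), with the 9 genes in red and left out of the other lists. The T cell list lay farthest to the left at a median of -2.17, and the dendritic lists had medians from -0.79 to -0.32.

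The ligands of the receptors among the 9 were read alongside. Flt3l, the growth factor that FLT3 binds, was at 4.00 to 8.54 CPM in Arf6Q67L tumours (median 5.18) and at 5.88 to 12.8 CPM in controls (median 8.02), with a log2 fold change of -0.65 (SE 0.28, unadjusted p = 0.0411, edgeR adjusted p = 0.412). Control 4 was highest for Flt3l, unlike for Flt3. Xcl1, the ligand of XCR1, which NK cells and CD8 T cells secrete, was at 0.0541, 0.138, 0.0319, 0.815, 0.442 and 0.686 CPM in Arf6Q67L tumours 1 to 6 and at 0.228, 1.48, 0.529 and 1.38 CPM in controls. Controls 2 and 4 were the highest for the ligand as they were for the receptor, and the log2 fold change was -1.31 (SE 0.81, edgeR adjusted p = 0.570). Ccl19 and Ccl21a, the ligands of CCR7, had 0 counts in all 10 libraries, and Ccl21a has near-identical copies in the genome whose shared reads may not have been counted.

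Levels can be compared between genes only per length, here as CPM per kilobase of exon. Over the 10 tumours the order of means was Batf3 (1.90 ± 1.95, SD, n = 10), Ccr7 (1.44 ± 1.05), Flt3 (1.16 ± 0.810), Xcr1 (0.942 ± 1.78), Siglech (0.891 ± 0.684), Cd209a (0.821 ± 0.620), Clec9a (0.817 ± 0.728), Zbtb46 (0.626 ± 0.185) and Cd207 (0.209 ± 0.175). Neighbours in this order did not differ beyond the SD of their log2 difference within tumours, except Zbtb46 and Cd207, where Zbtb46 was higher in 10 of 10 tumours. Xcr1 ranked 4 by its mean with controls 2 and 4 far above the rest, while its median of 0.236 was close to that of Cd207 (0.166). By group means Xcr1 ranked 2 of 9 in controls (1.99) and 8 of 9 in Arf6Q67L tumours (0.239), Clec9a ranked 5 (1.26) and 7 (0.521), and Batf3 was first (2.97 and 1.19) and Cd207 last (0.205 and 0.212) in both.

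Sequences before the annotated starts are shown for the gene that varied most and for 2 members that held a BATF-IRF composite element. This is the kind of site that BATF3 is known to bind with IRF8 or IRF4. Windows of 250 bases before to 50 after the RefSeq start (GRCm38.p6) were found for 8 of the 9 genes. Ccr7 had no window and was not searched. Among those 8, only Cd207 and Zbtb46 held the element. The stretches below run 5′ to 3′ on the gene's strand from 100 bases before to 10 after that start, and capitals mark the composite element. They lie at chr9:123862020-123862129 (Xcr1), chr6:83677848-83677957 (Cd207) and chr2:181424379-181424488 (Zbtb46), all on the minus strand.
Xcr1: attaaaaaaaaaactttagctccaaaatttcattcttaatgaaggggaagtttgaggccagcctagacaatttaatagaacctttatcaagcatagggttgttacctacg
Cd207: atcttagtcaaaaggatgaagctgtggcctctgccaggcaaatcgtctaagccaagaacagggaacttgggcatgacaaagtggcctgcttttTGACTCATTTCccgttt
Zbtb46: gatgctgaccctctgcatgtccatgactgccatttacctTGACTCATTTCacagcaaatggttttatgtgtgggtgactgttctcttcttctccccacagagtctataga

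The element searched was GAAA directly followed by TGANTCA, on either strand, and TGACTCATTTC is its reverse complement as found in Cd207, where it runs from 7 bases before the start to base 4 after it, and in Zbtb46, from 61 to 51 bases before it. It was in 0.125% of 32851 windows. The Zbtb46 start lies 35038 bases inside the gene as GENCODE annotates it, so that window is not the start of the longest transcript. The shorter AP-1 site TGANTCA, which is part of the element, was in 7.81% of windows and in the same 2 members. The spaced form, TTTC and TGANTCA with 4 bases between (0.119% of windows), and the interferon response core, GAAA repeated after 2 bases (3.44%), were in 0 of the 8. The PU.1-IRF element, GGAA and GAAA with 2 bases between (2.72%), was in that of Cd209a. These are matches of letters and no measure of binding.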

How the data were processed

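The authors deposited raw counts per gene in 1 table. The submitters' processing notes list, with no roles, the tools DESeq2 1.18.0, featureCounts 1.5.1 and STAR 2.5.2b and the genome GRCm38. Strand setting and handling of multi-mapping reads are not given in the sources available. RNA was selected for poly(A) and libraries were stranded, per the labels' protocols. All 10 columns were matched to samples by library identifier, and groups are the genotype labels. Tumour numbers follow accession order and pair nothing. Counts of tumours of 1 group differed far beyond sampling noise, with a chi-square of 78.8 or more per gene.

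Symbols, positions and exon lengths came from GENCODE M21 (GRCm38), which covered 52403 identifiers (99.56%), and sequences from RefSeq (GRCm38.p6). The test was run in R 4.3.3 with edgeR 4.0.16 (TMM, estimateDisp, glmQLFit robust, glmQLFTest) on genes kept by filterByExpr at min.count 10, adjusted over all 17286 genes. Log2 CPM used a prior count of 2. SE is the fold change over the root of F. A count of 0 allows up to 3 counts, which covers counting error only. Alternatives were RLE factors, DESeq2 1.42.0, the classic exact test, limma 3.58.1 voom with quality weights, no filter, the Ptprc level as a term, and each tumour left out. On simulated data over 17286 genes, the test made 1 false call.

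The members and lists were chosen with earlier results of these data known. The text names the 9 members, up to 3 other genes of each dendritic list and 1 of each other list by lowest unadjusted p, Ptprc, and the 3 genes of highest r with each member. How many genes to name per list was settled after values were seen, and Clec1b, Xcl1, Ccl19, Ccl21a, Krt5, Krt10, Krt14, Fscn1, Cxcl13, Arf6, Mitf, Tyr, Dct, Sox10, Pmel, Tyrp1 and Mlana were named for their relation to a member, list or tissue after values were seen.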

Additional observations from a re-analysis of the deposited data

Results flagged for a closer look

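In 4 of 66 groups of values examined (the 9 genes and 24 companions in 2 groups), 1 tumour stood apart from the rest of its group by Dixon's ratio, where chance gives about 1 in 20. Cd207 was at 0.915 CPM in Arf6Q67L tumour 6, with the next tumour at 0.331 CPM. The same tumour had the highest Cd209a of all 10 (3.003 CPM), the lowest Ptprc (76.3 CPM), and the highest Krt5 and Krt14 (0.715 and 1.17 CPM), and whether these values are linked was not tested. The leukotriene synthase gene Ltc4s was at 2.39 CPM in Arf6Q67L tumour 3, with the next at 1.28 CPM. Flt3l was at 8.54 CPM in Arf6Q67L tumour 5, with the next at 5.52 CPM. Mertk was at 131.0 CPM in Arf6Q67L tumour 1, with the next at 92.2 CPM.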

How the results depend on the processing

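Of 144 values of the 9 genes under 16 alternatives, 128 kept their direction, and no adjusted p was under 0.0527 (Xcr1 in DESeq2). Over all genes DESeq2 called 413, the classic exact test 194 and limma-voom 2, and leaving out single tumours gave 0 to 1 calls, the 1 without control 1. In limma-voom Cd207 turned to -0.26, Siglech to 0.0544, Cdh1 to -0.0423 and Perp to 0.23. With the Ptprc level as a term Batf3 turned to 0.0093, Zbtb46 to 0.0556, Siglech to 1.20, Naaa to 0.0032, Cd79b to 0.65 and Perp to 1.42. Over the tumours left out, values ran from -0.60 to 0.64 for Cd207 (-0.15 without control 1 and -0.23 without control 3), from -0.0339 to 0.64 for Cd209a (-0.0058 without control 3), from -0.59 to 0.49 for Flt3 (0.02 without Arf6Q67L tumour 3) and from -0.38 to 8.8e-04 for Zbtb46. For Siglech they ran from -0.77 to 0.19 (0.0179 without Arf6Q67L tumour 3 and 0.11 without control 4). Cdh1 ran from -0.22 to 0.24 (-0.19 without Arf6Q67L tumour 1, -0.0424 without tumour 4 and -0.0093 without control 4), Cd79b from -1.29 to 0.0387 and Perp from -0.94 to 0.79, the last 2 turned by leaving out control 4. The cause of these turns was not tested. No paired analysis was possible because the labels give tumours no shared numbers. Few counts limit Cd207 (3 to 32 a library) and Xcr1 in Arf6Q67L tumours 2 and 3 (5 and 9). Low counts also limit, among others, Cd209a (7 to 105 a library), Xcl1 (1 to 47) and Klk1 (2 to 42).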
